A study of Mus musculus with 4 samples.

Results

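The proteasome genes described here are the 51 rows, of 17519 in the deposited expression table, that are typed there as protein-coding and carry a symbol running from Psma to Psmg followed by a number. They carry 50 symbols, because 2 rows are named Psmb9. RNA was sequenced from MHC class II positive spleen cells of adult C57Bl.6 mice, purified with magnetic beads. The 3 day 1 PSA libraries came from cells kept for 24 h in RPMI medium with fetal bovine serum and 50 µg/ml of PSA, polysaccharide A, a capsule sugar of the gut bacterium Bacteroides fragilis. The 1 day 0 library came from freshly isolated cells given no PSA. No culture without PSA was analysed here, so a day in culture, PSA and whatever else differed between the day 1 and day 0 libraries cannot be told apart. The labels do not say whether the day 1 libraries are separate mice or cultures, so each p-value measures the spread between those 3 libraries and nothing else.

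The proteasome is the protease that degrades ubiquitin-tagged proteins and, in doing so, makes most of the peptides shown on MHC class I. Its 20S core is a barrel of stacked rings: Psma genes encode the outer alpha rings, which gate the entry, and Psmb genes the inner beta rings, which hold the active sites. The 19S cap, encoded by Psmc and Psmd genes, binds ubiquitin, unfolds the substrate and feeds it into the core, and the Psme genes encode other activators of the core. Immune cells, and other cells exposed to interferon, build an immunoproteasome, in which the catalytic subunits Psmb6, Psmb7 and Psmb5 are replaced by Psmb9, Psmb10 and Psmb8. Antigen-presenting cells of the spleen carry much immunoproteasome even at rest.

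The day 0 library was shallow, which bears on every value below. FPKM scales fragments to transcript length and library size, so it moves in steps of 1 fragment. From those steps the day 1 PSA libraries had 14.1, 15.9 and 21.9 times the depth of day 0, or about 3.00 M, 3.38 M and 4.66 M estimated fragments against 0.213 M at day 0. Protein-coding genes held 80.2%, 82.2% and 83.4% of all FPKM at day 1 PSA and 11.5% at day 0, but their summed FPKM was near equal, at 578670, 526740 and 483400 at day 1 PSA and 590960 at day 0. FPKM divides by length, so short genes weigh more and these are not shares of fragments. At day 0 a single gene that is not protein-coding held 1.58e+06 of the 5.12e+06 FPKM summed over all genes. The cells matched their label: the MHC class II genes H2-Aa, H2-Ab1 and Cd74 together stood at 17205, 16671 and 13681 FPKM at day 1 PSA and at 9596 FPKM at day 0. The makeup of the libraries moved as well. The B cell markers Ms4a1, Cd79a, Cd79b and Cd22 summed to 2843, 2712 and 2246 FPKM at day 1 PSA against 925 FPKM at day 0; the last 3 of them rose and Ms4a1 was not called. The 5 dendritic cell markers (Itgax, Flt3, Zbtb46, Siglech and Xcr1) summed to 17.96, 23.4 and 22.0 FPKM at day 1 PSA against 231 FPKM at day 0. Siglech made up most of that day 0 sum, at 222 FPKM there and 10.8, 16.2 and 13.6 FPKM at day 1 PSA. Zbtb46 was at 0 at day 0. Of 4 tested, 1 (Flt3) rose and 3 fell. The 5 macrophage markers (Adgre1, Csf1r, C1qa, C1qb and Cd68) summed to 47.6, 47.7 and 41.3 FPKM at day 1 PSA and 71.4 FPKM at day 0, and 2 rose and 3 fell. Of 4 T cell markers 1 rose and 1 fell, of 3 erythroid markers none was called, and of the NK cell markers Klrb1c fell and Ncr1 was at 0 at day 0. Of the neutrophil markers S100a9, listed at 0 at day 0, rose and S100a8 was not called. In bulk RNA, fewer cells of a type and less RNA per cell cannot be told apart, and the part of these shifts in the results below was not tested.

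Of the catalytic subunits, Psmb5 and Psmb6 rose, Psmb10 and a row named Psmb9 fell, and Psmb7, Psmb8 and the other Psmb9 row were not called. In each of the 3 pairs the ratio of the immunoproteasome subunit to its partner was lower in every day 1 PSA library than at day 0. For Psmb8 over Psmb5 the difference lay within the counting error of day 0. The rises of Psmb5 and Psmb6 rest on under 10 day 0 fragments each. Psmb10, the trypsin-like site of the immunoproteasome (chromosome 8, 105935735 to 105938444, minus strand, GENCODE M21 on GRCm38), stood at 62.8, 67.6 and 62.7 FPKM at day 1 PSA and at 113 FPKM at day 0. All 3 day 1 PSA libraries lay close together and below day 0. Psmb10 fell by 0.80 on the log2(FPKM + 1) scale (SE 0.11; limma, Benjamini-Hochberg adjusted p = 0.013), and its day 1 mean lay under the 95% counting interval of the day 0 value, 75.6 to 158 FPKM from about 31.4 fragments. Changes below are on this log2 scale, day 1 PSA minus day 0, unless the authors' deposited table is named. The call was lost when protein-coding totals were set equal (adjusted p = 0.051) or without day 1 PSA replicate 2 (adjusted p = 0.074). The authors' deposited table gave Psmb10 -1.07 on the log2 scale, with p = 0.025 and a false discovery rate of 0.36.

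Psmb9, the immunoproteasome's site at the place of Psmb6, was given as 2 rows, ENSMUSG00000024337 and ENSMUSG00000092299. GENCODE M21 has Psmb9 under another ID, on the minus strand of chromosome 17 from 34181987 to 34187764, so how reads were split between the rows is uncertain. The annotated gene also overlaps Tap1, on the other strand, by 212 bases, and strand handling is not given in the sources used here. Row ENSMUSG00000092299 stood at 17.4, 18.9 and 18.1 FPKM at day 1 PSA and at 38.2 FPKM at day 0, and fell by 1.04 (SE 0.11; limma adjusted p = 0.0086); without day 1 PSA replicate 2 the adjusted p was 0.053. Row ENSMUSG00000024337 stood at 38.0, 36.2 and 27.2 FPKM at day 1 PSA and at 48.3 FPKM at day 0, with a change of -0.52 (SE 0.25; limma adjusted p = 0.17) that was not called. With the median change of all genes set to 0 it was -1.11 and passed (adjusted p = 0.038). The authors' deposited table gives the other order, -0.24 for ENSMUSG00000092299 (false discovery rate 1) and -0.71 for ENSMUSG00000024337 (0.86). Both rows were lower than day 0 in all 3 day 1 PSA libraries, and their sum was 55.4, 55.03 and 45.3 FPKM at day 1 PSA against 86.5 FPKM at day 0. Psmb8, the chymotrypsin-like site (chromosome 17, 34197721 to 34201454, plus strand), was the most abundant of the catalytic subunits in every library, with 170.5, 180.0 and 173 FPKM at day 1 PSA and 137 FPKM at day 0. It did not share the lower level of Psmb9 and Psmb10: its change was 0.35 (SE 0.10; limma adjusted p = 0.066), not called, and all 3 day 1 PSA values lay inside the day 0 counting interval of 99.8 to 181 FPKM. The direction of Psmb8 was not stable, since it was -0.25 after the median change of all genes was set to 0 and -0.33 in the authors' deposited table.

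The standard catalytic subunits were higher at day 1 PSA. Psmb5, the standard chymotrypsin-like site that Psmb8 replaces (chromosome 14, 54614119 to 54618022, minus strand), stood at 59.8, 48.7 and 45.4 FPKM at day 1 PSA and at 22.3 FPKM at day 0, and rose by 1.15 (SE 0.21; limma adjusted p = 0.022). Psmb6, the caspase-like site (chromosome 11, 70525367 to 70527858, plus strand), stood at 91.9, 95.2 and 81.8 FPKM at day 1 PSA and at 51.4 FPKM at day 0, and rose by 0.79 (SE 0.14; limma adjusted p = 0.021). Every day 1 PSA library was above day 0 for both genes. Psmb7, the trypsin-like site (chromosome 2, 38588036 to 38644087, minus strand), stood at 86.8, 71.2 and 57.6 FPKM at day 1 PSA and at 45.5 FPKM at day 0, with a change of 0.63 (SE 0.28; limma adjusted p = 0.15) that was not called. It passed when protein-coding totals were set equal (0.79, adjusted p = 0.040). The day 0 values of Psmb5 and Psmb6 rest on about 4.27 and 8.72 fragments, and the day 1 means of both lie inside their 95% counting intervals, 5.70 to 53.6 FPKM for Psmb5 and 24.3 to 101 FPKM for Psmb6. The authors' deposited table gives both genes a smaller change, 0.23 for Psmb5 and 0.21 for Psmb6 (false discovery rate 1 for each). With the median change of all genes set to 0, neither call held (Psmb5 0.56, adjusted p = 0.11; Psmb6 0.19, adjusted p = 0.33). Without day 1 PSA replicate 2 the adjusted p of Psmb5 was 0.083 and that of Psmb6 was 0.0997; without replicate 3 that of Psmb5 was 0.052, and without replicate 1 that of Psmb6 was 0.070. GENCODE M21 also draws genes over others of this set: antisense Gm20496 over Psmb8, antisense Gm16156 over Psmb10, Nek6 on the other strand over Psmb7 and Mir686 within Psmb5. At day 1 PSA and then day 0, Gm20496 stood at 4.75, 1.44, 2.12 and 0 FPKM and Nek6 at 2.52, 1.71, 3.36 and 3.13 FPKM. Mir686 stood at 30.8, 3.78, 27.3 and 0 FPKM in that order. No values were used for Gm16156. How reads were shared between these genes and the subunits was not tested.

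**Figure D1:**
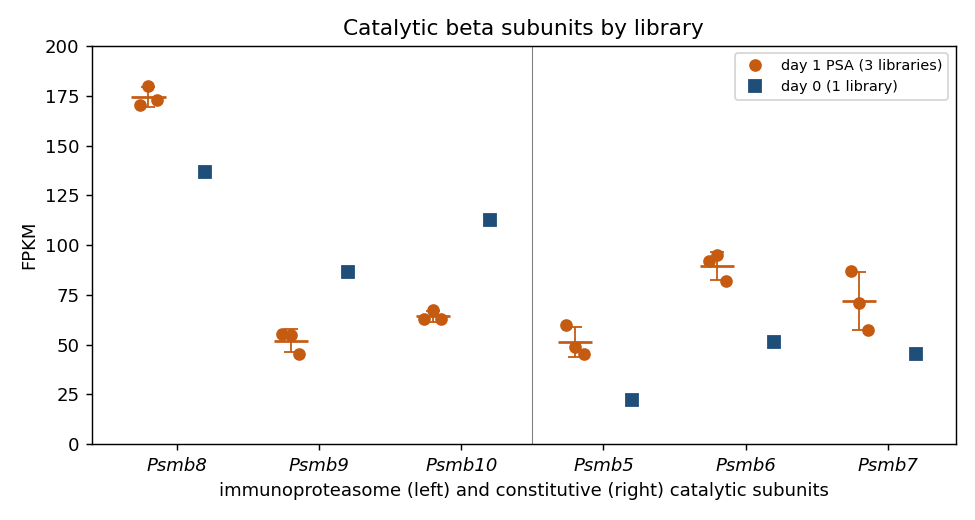
FPKM of the immunoproteasome subunits (left of the line) and their standard partners (right), with 1 point for each day 1 PSA library, the mean and SD of the 3, and a square for the day 0 library; the 2 rows named Psmb9 are summed. Psmb10 lies between 62.7 and 67.6 at day 1 PSA, below 113 at day 0, whereas Psmb6 lies between 81.8 and 95.2 at day 1 PSA, above 51.4 at day 0.

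A ratio of subunits within a library does not depend on how the library was scaled. Psmb10 over Psmb7 was 0.723, 0.9497 and 1.09 at day 1 PSA and 2.48 at day 0, so Psmb10 exceeded its partner at day 0 and in 1 of the 3 day 1 PSA libraries. Psmb9, both rows summed, over Psmb6 was 0.603, 0.578 and 0.554 at day 1 PSA and 1.68 at day 0. Psmb8 over Psmb5 was 2.85, 3.699 and 3.80 at day 1 PSA and 6.12 at day 0, so Psmb8 was the more abundant of that pair in all 4 libraries. On the log2 scale the day 1 mean minus day 0 was -1.45 for Psmb10 over Psmb7, -1.54 for Psmb9 over Psmb6 and -0.84 for Psmb8 over Psmb5. The day 0 ratio was thus 2.73, 2.91 and 1.79 times the day 1 PSA ratio in those pairs. The summed immunoproteasome subunits were 289, 303 and 281 FPKM at day 1 PSA against 336 FPKM at day 0, and the summed partners 239, 215 and 185 FPKM at day 1 PSA against 119 FPKM at day 0. The ratio of the sums was 1.21, 1.41 and 1.52 at day 1 PSA and 2.82 at day 0, with a log2 difference of -1.04.

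The smallest two-sided p that the exact permutation test of a ratio allows with 3 libraries against 1 is 0.25, so it cannot reach 0.05, and all 4 ratios gave that value. Counting error at day 0 was the other limit. Its 95% interval (exact binomial, for counting error only) was 1.22 to 5.50 for Psmb10 over Psmb7, 0.740 to 3.99 for Psmb9 over Psmb6 and 1.82 to 4.65 for the ratio of sums, and every day 1 PSA value of these 3 ratios lay below it. The interval of the ratio of sums is approximate, since it pools fragments of genes of different length. That of Psmb9 over Psmb6 adds the fragments of both rows, and reads shared between them would make it too narrow. For Psmb8 over Psmb5 the interval was 2.37 to 24.8 and held all 3 day 1 PSA values, so a difference in that pair was not detectable at this depth. With row ENSMUSG00000024337 alone as Psmb9, the interval of Psmb9 over Psmb6 was 0.370 to 2.40 and held 2 of the 3 day 1 PSA values (0.414, 0.380 and 0.332). Fold changes in the authors' deposited table differed, on the log2 scale, by -1.31 for Psmb10 minus Psmb7 and -0.56 for Psmb8 minus Psmb5, and the Psmb9 rows differed from Psmb6 there by -0.92 (ENSMUSG00000024337) and -0.45 (ENSMUSG00000092299).

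**Figure D2:**
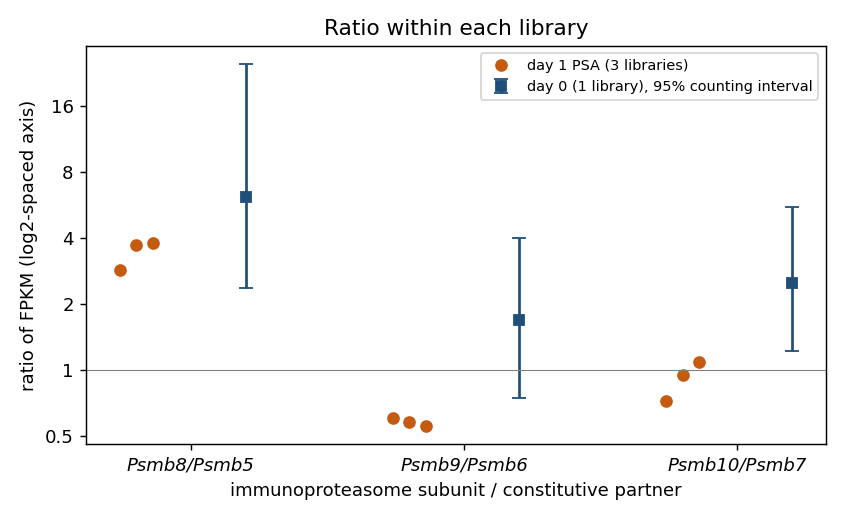
Ratio of FPKM of each immunoproteasome subunit to its standard partner (axis spaced by log2), with 1 circle for each day 1 PSA library and a square with its 95% counting interval for the day 0 library. The day 1 PSA circles of Psmb9/Psmb6 (0.554 to 0.603) and of Psmb10/Psmb7 (0.723 to 1.09) lie under the day 0 intervals, and those of Psmb8/Psmb5 (2.85 to 3.80) lie within theirs.

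The promoters of these genes are shown because Psmb5 and Psmb6 rose while Psmb10 and a Psmb9 row fell, and because interferon-response factors are known to drive the immunoproteasome genes and Nrf1 (the product of Nfe2l1) the standard ones. The 250 bases before the RefSeq start were read 5′ to 3′ on the gene's strand (GRCm38.p6): chr17:34197945-34198194 (plus) for Psmb8, chr17:34187331-34187580 (minus) for Psmb9, chr8:105938393-105938642 (minus) for Psmb10, chr14:54617996-54618245 (minus) for Psmb5 and chr11:70525107-70525356 (plus) for Psmb6. Capitals mark the interferon-gamma activation site (TTCNNNGAA) in Psmb8 and the antioxidant response element core (TGACNNNGC), the kind of site that Nrf1 binds, in Psmb5 and Psmb6.
Psmb8: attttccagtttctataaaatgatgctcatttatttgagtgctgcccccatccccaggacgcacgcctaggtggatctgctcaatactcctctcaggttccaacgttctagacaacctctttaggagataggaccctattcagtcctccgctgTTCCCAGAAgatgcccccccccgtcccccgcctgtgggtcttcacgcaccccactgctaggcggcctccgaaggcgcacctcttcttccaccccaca
Psmb9: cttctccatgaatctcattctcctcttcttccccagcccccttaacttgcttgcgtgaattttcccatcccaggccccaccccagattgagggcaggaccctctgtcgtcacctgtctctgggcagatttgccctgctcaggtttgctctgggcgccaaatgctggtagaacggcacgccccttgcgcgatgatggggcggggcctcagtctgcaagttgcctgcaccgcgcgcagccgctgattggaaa
Psmb10: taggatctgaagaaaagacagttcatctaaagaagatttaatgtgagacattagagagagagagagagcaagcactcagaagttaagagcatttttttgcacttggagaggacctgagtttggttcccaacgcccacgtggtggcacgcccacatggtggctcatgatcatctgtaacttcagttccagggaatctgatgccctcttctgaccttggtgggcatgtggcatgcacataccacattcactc
Psmb5: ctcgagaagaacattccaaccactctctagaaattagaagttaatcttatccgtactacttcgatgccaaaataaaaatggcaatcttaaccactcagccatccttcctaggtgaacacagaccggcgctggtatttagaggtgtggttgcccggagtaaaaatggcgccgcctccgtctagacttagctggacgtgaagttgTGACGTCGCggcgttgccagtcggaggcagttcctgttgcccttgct
Psmb6: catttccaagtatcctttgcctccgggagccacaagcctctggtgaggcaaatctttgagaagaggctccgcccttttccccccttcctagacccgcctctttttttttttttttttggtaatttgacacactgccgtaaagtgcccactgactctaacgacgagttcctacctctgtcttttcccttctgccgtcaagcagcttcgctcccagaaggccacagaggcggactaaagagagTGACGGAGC
The RefSeq starts of Psmb8, Psmb9, Psmb10 and Psmb5 lie inside the genes as GENCODE M21 draws them. The windows of Psmb8 and Psmb9 thus lie wholly within the drawn gene, and those of Psmb10 and Psmb5 in part. The Psmb8 match begins 97 bases before the RefSeq start. The antioxidant response element core begins 47 bases before the start of Psmb5 and 9 bases before that of Psmb6. Psmb9 and Psmb10 hold neither of these motifs, nor the interferon-stimulated response element core (GAAANNGAAA), in the 300 bases searched, from 250 before to 50 after the start. RefSeq windows were at hand for 42 of the 50 symbols, and both strands were searched. The standard subunit Psmb7 is not shown and is not among the genes with a match named below, for want of a match or of a window. The antioxidant core was in 6 of 42 (14.3%): Psmb5, Psmb6, Psmc6, Psmd9, Psmd12 and Psme4; it was in 13.99% of all 27025 genes with a window. The interferon-stimulated core was in 5 of 42 (11.9%), against 3.99% of all genes: Psmb3, Psmd4, Psmd9, Psme1 and Psmg4. The interferon-gamma site was in 3 of 42 (7.14%), against 9.55% of all genes: Psmb8, Psmd2 and Psmg1. The motifs can overlap others, and a match is a description of letters.

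Across all 51 genes, 49 passed the filter of 1 FPKM in at least 1 library and were tested. Of these, 14 rose, against 35.0% of all 13903 genes tested, and 6 fell, against 19% of all genes tested. The median change was 0.28 over the tested proteasome genes and 0.59 over all genes tested; over all tested genes above 0 at day 0 it was 0.018. With the median change of all genes set to 0, 9 proteasome genes rose and 13 fell, and without day 1 PSA replicate 2 the counts were 6 and 2. Rises were mostly of genes with few fragments at day 0: among the 27 genes with at least 10 estimated fragments at day 0, only Psmc5 rose (19.6% of all genes of that kind rose) and 5 fell (34.2% of all), while among the 22 tested genes under 10 fragments, 13 rose (46.5% of all) and 1, Psmg4, fell (10.8% of all). Of the 14 rises, 10 had a day 1 mean outside the day 0 counting interval, and of the 6 falls, all 6 did. The rises inside it were Psmb5, Psmb6, Psmc5 and Psmg1. Over the 48 genes above 0 in every library, called or not, 19 lay outside. The calls use the same day 0 value, so this is not a separate check of them. The share over all genes was not computed. No proteasome gene had a false discovery rate under 0.05 in the authors' deposited table, and at an unadjusted p under 0.05 none was higher and 3 were lower (Psmb10, Psmd1 and Psmd9); over all genes those shares were 0.280% and 2.53% at the false discovery rate, and 2.36% and 7.38% at the unadjusted p. Of 48 genes above 0 in every library, 38 had the same sign in limma and in the authors' deposited table, as did 19 of the 20 called genes. Both come from the same libraries, so this is not a separate check either. The authors' deposited fold changes of the 14 rises ran on the log2 scale from -0.05 (Psmc5) to 0.54 (Psmc1).

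**Figure D3:**
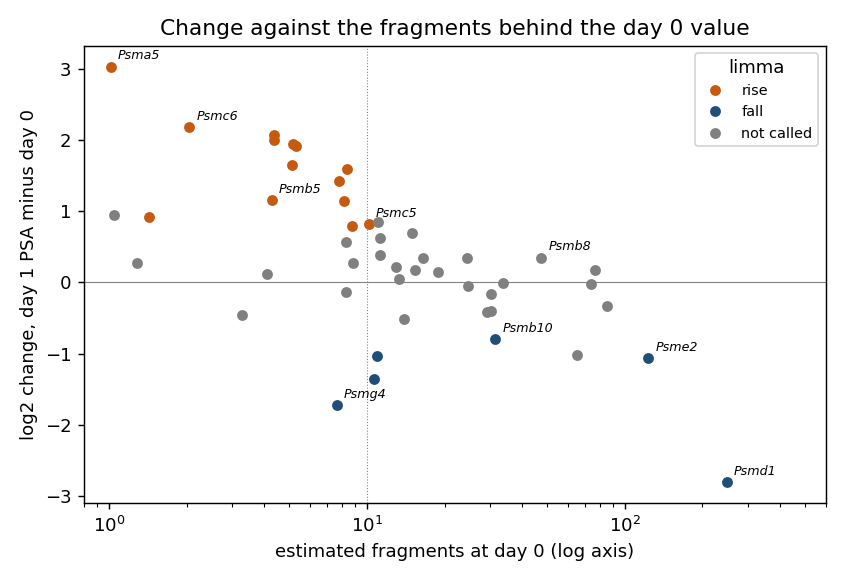
Log2 change (day 1 PSA minus day 0, log2(FPKM + 1)) of the 48 proteasome genes above 0 in every library, against the estimated number of fragments behind the day 0 value (log axis), coloured by the limma call; the dotted line marks 10 fragments. Rises crowd at the left, with Psmc5 the 1 rise beyond the line, on 10.2 fragments. The day 1 mean of Psmc5 lay inside its day 0 counting interval. Spearman's rho was -0.62 (n = 48 genes, both axes sharing the day 0 value).

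In the outer ring of the core, 4 of 7 Psma genes rose and none fell, with a median change of 1.42. All 4 had under 10 day 0 fragments, where 46.5% of all genes tested rose (35.0% over all genes). Psma5 showed the largest change of the class, with 43.2, 38.2 and 34.9 FPKM at day 1 PSA against 3.84 FPKM at day 0, a rise of 3.03 (SE 0.17; limma adjusted p = 0.0038). That day 0 value is about 1.01 fragments, and the authors' deposited table gives Psma5 only 0.48 on the log2 scale. Psma1, Psma2 and Psma7 also rose, by 1.94, 1.99 and 1.42, on 5.14, 4.34 and 7.76 day 0 fragments. Psma3 had the lowest change of the class, with 139, 151 and 83.6 FPKM at day 1 PSA and 122 FPKM at day 0, so that the day 1 PSA libraries lay on both sides of day 0 (-0.02, SE 0.42; not called). Its sign turned when protein-coding totals were set equal (0.14), without day 1 PSA replicate 3 (0.24) and in the authors' deposited table (0.05). Of the 4 beta subunits with no active site, Psmb3 rose, with 182, 159 and 133 FPKM at day 1 PSA against 51.2 FPKM at day 0 (1.60, SE 0.22; limma adjusted p = 0.013; adjusted p = 0.069 without day 1 PSA replicate 2). That day 0 value is about 8.34 fragments, and the authors' deposited table gives Psmb3 0.29 on the log2 scale. Psmb1, the most abundant of the 14 standard core subunits in all 4 libraries, stood at 205, 188 and 153 FPKM at day 1 PSA and 228 FPKM at day 0 and was not called (-0.33, SE 0.22). It passed with the median change of all genes set to 0 (-0.93, limma adjusted p = 0.042).

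The core particle holds each of its standard subunits in equal number. At day 1 PSA the highest of the 14 standard core subunits stood 6.41, 5.71 and 5.43 times above the lowest, always Psmb1 over Psma2, around medians of 87.9, 90.6 and 79.5 FPKM. At day 0 the fold was 59.3, from Psmb1 to Psma5, around a median of 45.4 FPKM. The 17 subunits of the 19S cap spanned 4.71, 4.72 and 4.69-fold at day 1 PSA and 87.3-fold at day 0. Levels at day 0 were far more uneven in both assemblies, in the library with the fewest fragments. The lowest day 0 values, of Psma5 in the core and Psmc6 in the cap, were about 1.01 and 2.04 fragments, so these folds are uncertain. The summed proteasome genes took a like share of protein-coding FPKM in all libraries, 0.615%, 0.642% and 0.642% at day 1 PSA and 0.592% at day 0.

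**Figure D4:**
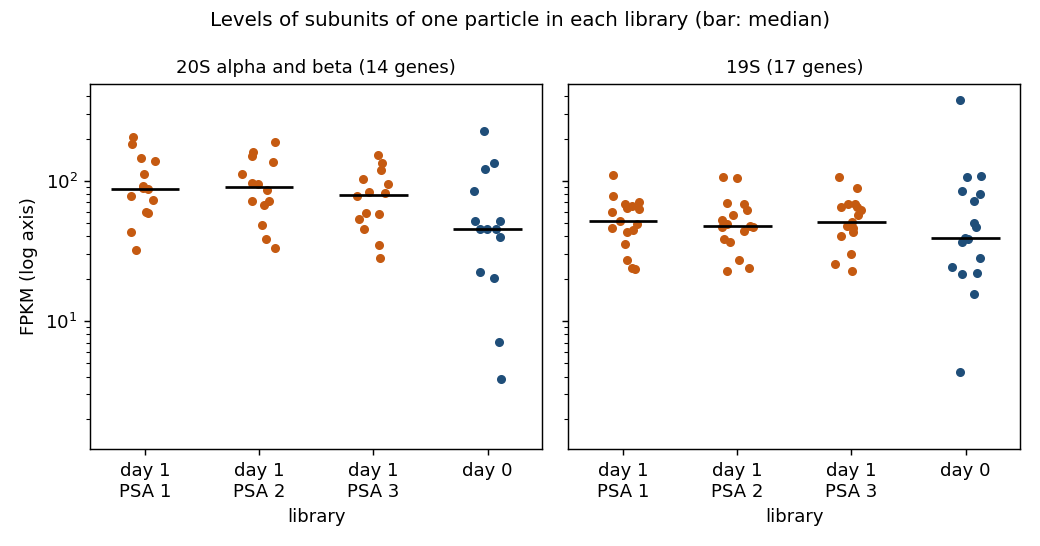
FPKM (log axis) of the 14 standard core subunits (left) and the 17 cap subunits (right) in each library, with 1 point for each gene and a bar at the median. Points span 5.43 to 6.41-fold in the left panel at day 1 PSA and 59.3-fold at day 0, where the lowest, Psma5, is about 1.01 fragments.

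In the 19S base, whose Psmc ATPases unfold the substrate, 4 of 6 genes rose and none fell, against 35.0% and 19% of all genes tested, with a median change of 0.98. Psmc6 stood at 23.9, 22.5 and 22.8 FPKM at day 1 PSA and at 4.30 FPKM at day 0, a rise of 2.18 (SE 0.11; limma adjusted p = 0.0035) on 2.04 day 0 fragments. Psmc1, Psmc2 and Psmc5 rose by 1.92, 1.14 and 0.82, on 5.29, 8.15 and 10.2 day 0 fragments. The day 1 mean of Psmc5, 64.8 FPKM, lay inside its day 0 counting interval of 17.1 to 65.7 FPKM. All of these rises but Psmc5 had under 10 day 0 fragments, where 46.5% of all genes tested rose. Psmc3 stood at 64.3, 57.1 and 68.0 FPKM at day 1 PSA and at 84.0 FPKM at day 0 and was not called (-0.41, SE 0.15). It passed with the median change of all genes set to 0 (-1.004, limma adjusted p = 0.016). The authors' deposited table has it at 0.35. The non-ATPase subunits, which form the scaffold and lid of the cap and bind and remove ubiquitin, held no rise in 11 genes and 1 fall, against the same 35.0% and 19%, with a median change of -0.05 that turned to 0.11 when protein-coding totals were set equal. The fall was that of Psmd1, a large scaffold subunit (chromosome 1, 86064387 to 86139151, plus strand): 66.0, 47.8 and 46.2 FPKM at day 1 PSA against 376 FPKM at day 0, or -2.81 (SE 0.27; limma adjusted p = 0.0071). All day 1 PSA values lay far below day 0, on about 248 day 0 fragments, and the authors' deposited table gives -1.73 (false discovery rate 0.18). At day 0 Psmd1 was 3.48 times the next cap subunit, whereas at day 1 PSA it ranked among the others. GENCODE M21 has 3 more genes on the same strand that overlap Psmd1 (the snoRNA Gm22786 and Gm37914 lie within it and Gm21972 in part), for which no values were used here, so reads from them may be counted in it. Psmd3, part of the lid, had the highest change of the class, with 48.8, 36.4 and 48.3 FPKM at day 1 PSA and 24.1 FPKM at day 0 (0.85, SE 0.23; limma adjusted p = 0.055, not called; adjusted p = 0.022 among only genes above 0 in every library). The lid subunit Psmd11 stood at 42.9, 49.1 and 68.7 FPKM at day 1 PSA and 108 FPKM at day 0 (-1.03, SE 0.32; limma adjusted p = 0.074, not called).

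The chaperones that assemble the 19S base parted. Psmd5 stood at 34.6, 16.5 and 20.6 FPKM at day 1 PSA and at 4.66 FPKM at day 0 and rose by 2.07 (SE 0.49; limma adjusted p = 0.040). Its day 1 PSA libraries spread by 2.10-fold, the widest of all 48 genes above 0 throughout, and the call was lost without replicate 2 or 3 (adjusted p = 0.067 and 0.11) and with the median change of all genes set to 0 (1.48, adjusted p = 0.086). The Psmd5 value at day 0 is about 4.36 fragments, and the authors' deposited table gives 0.39 (false discovery rate 0.96). Psmd9 stood at 7.94, 6.35 and 6.502 FPKM at day 1 PSA and at 19.2 FPKM at day 0 and fell by 1.36 (SE 0.18; limma adjusted p = 0.012), a call lost without day 1 PSA replicate 2 (adjusted p = 0.057). The third, Psmd10, was not called (0.94, SE 0.26). Among the chaperones that assemble the core, Psmg1 rose by 0.93 (SE 0.24; limma adjusted p = 0.0498), with 15.01, 10.7 and 13.9 FPKM at day 1 PSA and 6.41 FPKM at day 0. The Psmg1 value at day 0 is about 1.42 fragments, its day 1 mean lies inside the day 0 counting interval, and the call was lost in 7 alternatives, among them leaving out any 1 of the day 1 PSA libraries (adjusted p 0.055 to 0.13). Psmg4 fell by 1.73 (SE 0.40; limma adjusted p = 0.038), with 22.6, 13.1 and 22.4 FPKM at day 1 PSA and 64.7 FPKM at day 0. The call was lost when protein-coding totals were set equal (-1.57, adjusted p = 0.051) and without day 1 PSA replicate 1 (adjusted p = 0.081) or 3 (adjusted p = 0.089). Psmg2 and Psmg3 were not called.

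**Figure D5:**
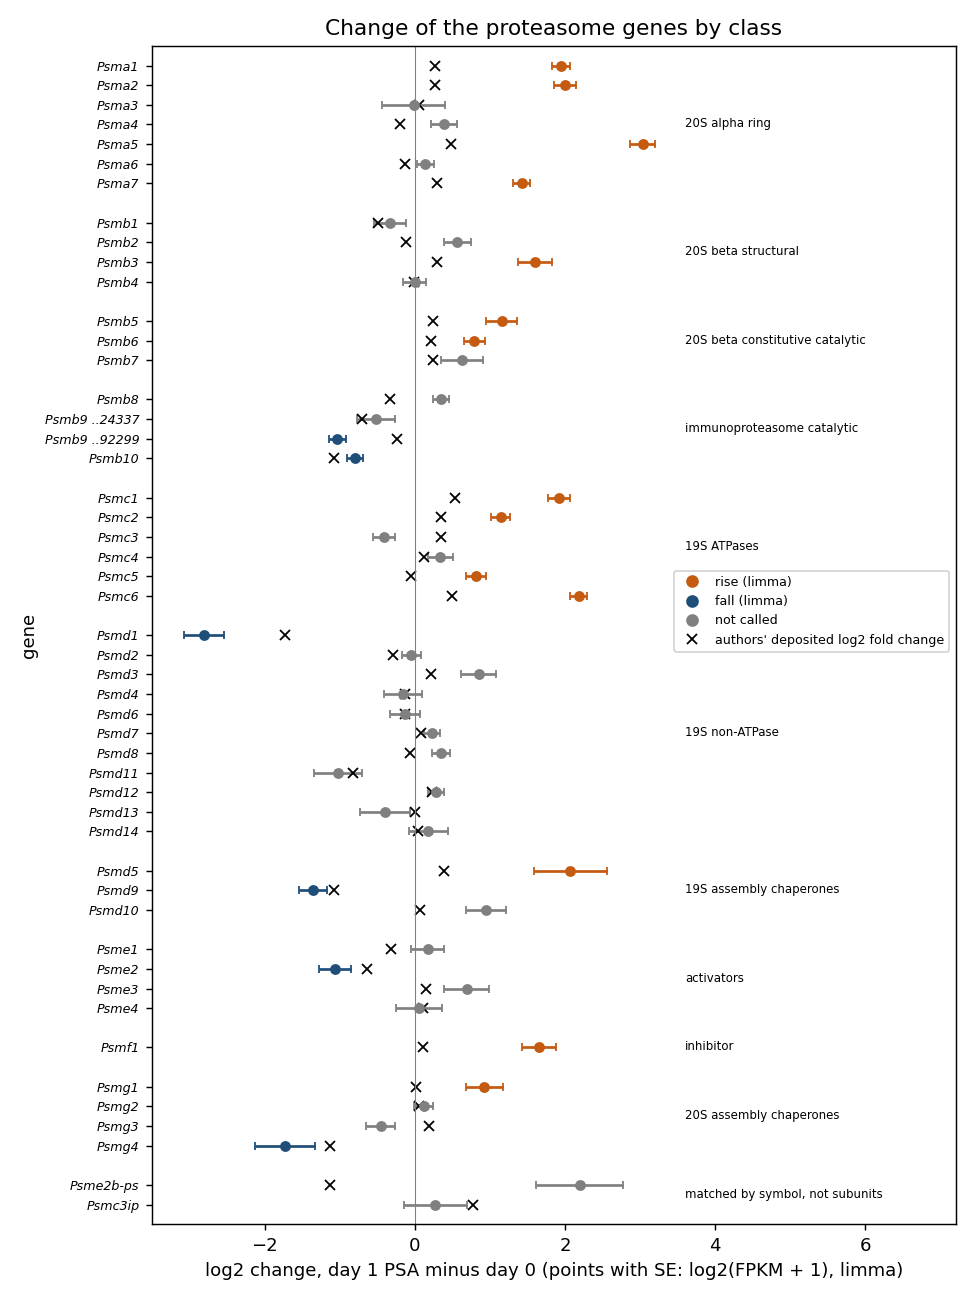
Log2 change of each tested gene, day 1 PSA minus day 0, grouped by class (circles with SE, limma on log2(FPKM + 1); colour gives the call), beside the log2 fold change that the authors' deposited table gives (crosses). In the alpha ring 4 of 7 rose and among the ATPases 4 of 6, all but Psmc5 on under 10 day 0 fragments. Of all genes tested 35.0% rose, and 46.5% of those under 10 day 0 fragments. The crosses lie nearer 0 for most rises, as for Psma5 at 0.48 against 3.03.

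Psme1 and Psme2 encode the alpha and beta chains of PA28, an interferon-inducible ring that opens the core and is tied to antigen processing. They were the most abundant of the 51 genes at day 1 PSA, and of the pair Psme2 fell while Psme1 was not called. Psme2 (chromosome 14, 55587441 to 55591113, minus strand) stood at 340, 270 and 259 FPKM at day 1 PSA and at 603 FPKM at day 0, and fell by 1.07 (SE 0.22; limma adjusted p = 0.029) with every day 1 PSA library far below day 0. The day 0 value rests on about 123 fragments, with a counting interval of 500 to 718 FPKM; the call was lost without day 1 PSA replicate 2 (adjusted p = 0.12) or 3 (adjusted p = 0.078), and the authors' deposited table gives -0.64 (false discovery rate 0.87). Psme1, its neighbour (chromosome 14, 55578123 to 55581529, plus strand), stood at 408, 384 and 308 FPKM at day 1 PSA and at 324 FPKM at day 0, so the groups overlapped (0.17, SE 0.22; limma adjusted p = 0.55). Its direction turned to -0.42 with the median change of all genes set to 0, and it was -0.31 in the authors' deposited table. Psme3, the nuclear activator PA28 gamma, stood at 36.4, 39.3 and 55.7 FPKM at day 1 PSA and 26.3 FPKM at day 0 and was not called (0.69, SE 0.30). Psme4, which encodes the activator PA200, stood at 8.23, 9.37 and 13.0 FPKM at day 1 PSA and 9.63 FPKM at day 0 (0.05, SE 0.30; not called). Psmf1, an inhibitor of the core known as PI31, rose by 1.65 (SE 0.23; limma adjusted p = 0.013), with 23.0, 25.1 and 18.3 FPKM at day 1 PSA and 6.30 FPKM at day 0; without day 1 PSA replicate 1 or 2 the adjusted p was 0.053. That day 0 value is about 5.10 fragments, and the authors' deposited table gives Psmf1 only 0.11 on the log2 scale.

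Subunits restricted to other tissues were near 0. Psma8, the alpha subunit of the testis, was at 0, 0 and 0.215 FPKM at day 1 PSA and listed at 0 at day 0. Psmb11, the catalytic subunit of the thymus cortex, was at 0.108, 0.090 and 0.215 FPKM at day 1 PSA and listed at 0 at day 0. Both failed the filter on low values. A pair of genes share the symbol pattern without being subunits. Psmc3ip, a meiotic recombination factor, stood at 8.74, 4.41 and 5.09 FPKM at day 1 PSA and 4.66 FPKM at day 0, and Psme2b-ps, a copy of Psme2 whose reads can be confused with it, stood at 6.37, 3.07 and 2.21 FPKM at day 1 PSA and was listed at 0 at day 0. Neither was called; Psme2b-ps passed in 4 alternatives (limma adjusted p 0.014 to 0.040).

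Genes that work with the proteasome were read from lists of known partners. Of 12 partners and assembly factors 11 were measured, and 2 rose and none fell, with a median change of -0.15 (35.0% of all genes tested rose and 19% fell). Pomp, the chaperone that completes the core and favours the immunoproteasome, stood at 90.1, 95.6 and 64.8 FPKM at day 1 PSA and at 167 FPKM at day 0, with a change of -1.01 (SE 0.29; limma adjusted p = 0.058) that was not called. It passed in 4 alternatives (adjusted p 0.018 to 0.049). Uchl5, a deubiquitinase of the cap, rose by 1.81 (limma adjusted p = 0.0077), on 0.924 day 0 fragments. Zfand2a, which binds proteasomes under stress, had the lowest change of the list (-1.27; not called, but passing in 3 alternatives with adjusted p 0.028 to 0.044). Of 14 ubiquitin genes and shuttle factors, 7 rose and 1 fell, with a median change of 0.87. Nploc4, a cofactor of the unfolding ATPase Vcp, rose by 3.02 (limma adjusted p = 0.0038), with 17.97, 14.9 and 17.4 FPKM at day 1 PSA and 1.18 FPKM, about 1.03 fragments, at day 0. The authors' deposited table gives Nploc4 0.73 on the log2 scale. The fall was that of the ubiquitin ligase Ube3a, with 4.41, 4.44 and 3.30 FPKM at day 1 PSA and 17.3 FPKM at day 0 (-1.86; limma adjusted p = 0.0096).

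Of 9 regulators of proteasome genes, 4 rose and none fell, against 35.0% and 19% of all genes tested, with a median change of 0.69. Nfe2l1, whose product switches on the standard subunits when the proteasome is impaired, stood at 10.7, 13.5 and 18.9 FPKM at day 1 PSA and 30.4 FPKM at day 0 (-1.07, SE 0.36; limma adjusted p = 0.085, not called). It passed among only genes above 0 in every library (adjusted p = 0.031) and with the median change of all genes set to 0 (adjusted p = 0.036). Irf1, an interferon-induced activator of immunoproteasome genes, stood at 41.1, 44.5 and 42.6 FPKM at day 1 PSA and 56.3 FPKM at day 0 (-0.39, SE 0.11; limma adjusted p = 0.056, not called). It passed with a pseudocount of 0.1 (adjusted p = 0.047) and with that median set to 0 (-0.98, adjusted p = 0.0094). All 3 day 1 PSA libraries were below day 0 for both. Nlrc5, the transactivator of MHC class I genes, had the highest change of the list, with 18.5, 20.6 and 29.8 FPKM at day 1 PSA and 2.77 FPKM at day 0 (2.64; limma adjusted p = 0.011; adjusted p = 0.052 without day 1 PSA replicate 2), and Stat3 the lowest (-1.58; not called, but passing in 2 alternatives with adjusted p 0.033 and 0.0496). Of 10 genes that carry or trim peptides for MHC class I, 3 rose and 3 fell, against the same 35.0% and 19%, with a median change of 0.01. Tap1, a chain of the peptide transporter that shares its promoter region with Psmb9, stood at 85.9, 103 and 127 FPKM at day 1 PSA and 53.7 FPKM at day 0, above it in all 3 libraries (0.94, SE 0.27; limma adjusted p = 0.062, not called), though the authors' deposited table has it at -0.19. It passed among only genes above 0 in every library (adjusted p = 0.021). The endoplasmic reticulum chaperone Pdia3 rose by 1.21 (limma adjusted p = 0.012; adjusted p = 0.065 without day 1 PSA replicate 2). The cytosolic aminopeptidase Npepps fell by 3.77, with 13.1, 8.61 and 14.9 FPKM at day 1 PSA and 176 FPKM at day 0 (limma adjusted p = 0.0069). None of these 44 genes had a false discovery rate under 0.05 in the authors' deposited table; at an unadjusted p under 0.05 none was higher and 3 were lower, 2 of them ubiquitin or shuttle genes and 1 a peptide gene.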

How the data were processed

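Libraries were grouped by their titles. Per the labels' protocols, RNA (RNeasy) was sequenced on an Illumina HiSeq, adaptors were removed and reads under 10 nt left out. The authors deposited FPKM; TopHat 1.4.1, Cufflinks 2.2.1 and GRCm38.p6 are from the submitters' processing notes. The sources used here do not give the annotation release or strand handling. The deposited table also holds p-values, log2 fold changes and false discovery rates; its headers name no test. Mapping short reads can make values of gene copies uncertain.

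Computed here: limma 3.58.1 (trend, R 4.3.3) on log2(FPKM + 1) over 13903 genes with FPKM of at least 1 in a library, Benjamini-Hochberg adjustment, threshold 0.05. That scale understates changes of low genes. The spread came from the 3 day 1 PSA libraries and was taken to hold for day 0 too (residual degrees of freedom 2, prior 1.27), so the larger counting error of day 0 is not in the SE. Depth came from FPKM steps of genes with a single GENCODE M21 transcript, 1 kb or longer: 61.3%, 62.4% and 66.8% of low day 1 PSA values and 60.3% of low day 0 values lay within 0.1 of a whole fragment, where 20% is chance for a step fixed in advance. The step was the one that fitted these same values best, so the percentages are not a test of it. Depth and fragments are estimates. Fragments use the principal transcript's length, with exact 95% Poisson intervals, for counting error only. A 0 at day 0 may be a failed estimate; 7378 genes were at 0 there. Genes printed in full were Psmb5 to Psmb10; with values, the Psme genes, the highest and lowest change of each class and list, genes at 0 or filtered out, and Pomp, Nfe2l1, Irf1 and Tap1; Psmd11, the other called genes and the Psmb9 sum were chosen after values were seen. For 2 of the lists, 1 gene each is not reported here and is left out of their counts, sums and medians. The members and lists were chosen with earlier results of these data known. Promoters are from RefSeq (GRCm38.p6). Tests were checked on simulated data. For limma, the simulated libraries all had the day 1 PSA means and spread, so the shallow depth of day 0 was not simulated.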

Additional observations from a re-analysis of the deposited data

How the results depend on the processing

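The lower ratio of immunoproteasome to standard subunits kept its direction in every alternative run: log2 differences ranged from -0.56 to -0.91 for Psmb8/Psmb5, from -0.45 to -1.87 for Psmb9/Psmb6, from -1.29 to -1.58 for Psmb10/Psmb7 and from -0.95 to -1.28 for the sums. Leaving out a day 1 PSA library could not turn it, since every day 1 PSA ratio was below that of day 0. All alternatives share the 1 shallow day 0 library, so they do not test its counting error. The authors' deposited table has no fold change of the sums, so that alternative was not run. Counts of calls were not stable. Rises among proteasome genes numbered 9 with the median change set to 0, 0 in the authors' deposited table, 1 among genes with at least 10 day 0 fragments (chosen after seeing the data) and 6 to 12 leaving out 1 day 1 PSA library; falls numbered 13, 0, 5 and 2 to 5. Over all genes, rises were 3079 with only genes above 0 in every library, 3034 with the median set to 0, 49 in the authors' deposited table and 2549 to 4050 leaving out 1 library; falls were 3895 with the median set to 0, and so more than the rises there, 443 in that table and 1393 to 2122 leaving out 1 library. The median change of all genes was 0.78 and 0.69 with pseudocounts of 0.1 and 0.5, 0.39 with no filter, 0.18 with genes above 0 in every library, 0.70 with protein-coding totals equal, 0 once centred and 0.028 in the authors' deposited table. That of proteasome genes was 0.43 with totals equal, -0.32 centred, 0.044 in the authors' deposited table and 0.28 to 0.36 leaving out 1 library. With the median set to 0, signs reversed for Psmb8 (-0.25), Psme1 (-0.42), Psme4 (-0.54) and Psmc3ip (-0.32); in the authors' deposited table for Psmb8 (-0.33), Psme1 (-0.31), Psma3 (0.054), Psmc3 (0.35), Psme2b-ps (-1.13) and Tap1 (-0.19); with totals equal for Psma3 (0.14); and without day 1 PSA replicate 3 for Psme4 (-0.12; to 0.18 leaving out 1 library) and Psma3 (0.24; from -0.18). The cause was not tested. Class medians changed sign for beta structural subunits, activators, non-ATPases and core chaperones under 1 or 2 alternatives each. No paired analysis was possible because day 0 has 1 library and shares no pairing with day 1 PSA. Depth at day 0 limits every change of a gene with few fragments.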

Other observations

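The PA28 chains gave a ratio that was looked at after their values were seen. Psme2 over Psme1 was 0.833, 0.704 and 0.839 at day 1 PSA and 1.86 at day 0, with a 95% counting interval of 1.39 to 2.52 at day 0 that lies above all 3 day 1 PSA values. The log2 difference was -1.24 (exact permutation test, two-sided p = 0.25, the smallest that 3 libraries against 1 allow). Psme2 thus exceeded its partner at day 0 and was below it in all 3 day 1 PSA libraries, on 123 and 76.5 estimated day 0 fragments. The 2 rows named Psmb9 also shifted against each other: ENSMUSG00000092299 over ENSMUSG00000024337 was 0.458, 0.522 and 0.666 at day 1 PSA and 0.790 at day 0.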
